A study of Mus musculus with 9 samples.

Results

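Direct target genes of YAP were followed in mouse 4T1 cells after knockdown of Yap. They are Ccn1, Ccn2, Ankrd1, Axl, Nt5e, F3, Myof, Asap1, Gadd45b and Crim1, genes known to be activated by YAP at their own regulatory elements. They were chosen by symbol, with earlier results of these data known. All 10 had values in both deposited tables, which share 15926 genes. 4T1 cells grow from a mammary tumour of a BALB/c mouse and are used as a model of metastatic breast cancer. Their RNA was sequenced in 9 libraries, 3 each of cells labelled shYap-1 and shYap-2, which are Yap knockdowns by different hairpins, and 3 of shCTRL, labelled wild type and negative control. Both knockdowns are compared with the same 3 shCTRL libraries, so they are not independent of each other. How the hairpins were delivered, and whether the cells were pools or clones, is not given in the sources used here. The labels do not say that replicates came from separate cultures, so p-values measure the spread between these libraries, which may be technical.

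YAP is a transcriptional co-activator without a DNA-binding domain of its own. When the kinases of the Hippo pathway are active, LATS kinases phosphorylate YAP and its paralog TAZ and hold them in the cytoplasm. When they are not, YAP enters the nucleus and binds TEAD factors on promoters and distal enhancers, often beside AP-1. Its targets in carcinoma cells include secreted matrix proteins, cell-surface receptors and enzymes, and regulators of the cytoskeleton and of stress responses, and Ccn1, Ccn2 and Ankrd1 are the usual readouts of its activity.

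Values are FPKM, a count of sequenced fragments scaled for the length of the transcript and the depth of the library. The depth behind them, estimated from the values themselves, was 19.6 to 28.3 M fragments per library. Replicate 2 of shYap-1 stood apart from its group. It had 2.01% of its summed FPKM in mitochondrial genes, against 4.23% and 3.97% in replicates 1 and 3. Set against its group mean, its values leaned towards GC-rich genes (Spearman correlation with GC content 0.748). Replicates 1 and 3 leaned the other way (-0.678 and -0.588), which is partly set by the mean they share. Smaller leans were present in shCTRL replicates 1 and 3 (-0.395 and 0.402). Epithelial keratin and adhesion genes were abundant in every library, with 6 markers summing to 2432 to 2748 FPKM in shYap-1, 2481 to 2516 in shYap-2 and 1959 to 2073 in shCTRL. Of these 6, Krt8, Krt19 and Krt14 rose and Krt18 fell with both hairpins, and their part in the results below was not tested. The call of Krt18 was lost with shYap-1 when shCTRL replicate 2 or 3 or shYap-1 replicate 1 or 3 was left out, and with shYap-2 without shCTRL replicate 2, in 1 fit of all libraries and without the limma trend. The 4 leukocyte markers with values in both tables summed to 0.8 to 1.7 FPKM in shYap-1 and 0.51 to 0.93 in shYap-2, against 0.15 to 0.38 in shCTRL. These sums were low in every library, but those of the knockdowns lay above shCTRL, and their part in the results was not tested. The 6 markers of fibroblasts and endothelium summed to 0.81 to 1.17 FPKM in shYap-1 and 0.52 to 1.01 in shYap-2, against 0.45 to 0.7 in shCTRL.

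The knockdown was checked on Yap1 itself, the gene of YAP. It had 8.03, 9.05 and 9.23 FPKM in shYap-1 cells and 11.04, 10.4 and 9.79 FPKM in shYap-2 cells, against 49.3, 48.3 and 48.8 FPKM in shCTRL cells. Yap1 fell by 2.35 ± 0.0701 (SE, log2 scale) with shYap-1 and by 2.13 ± 0.0496 with shYap-2 (limma, adjusted p = 9.3e-07 and 4.26e-09, n = 3 each). Wwtr1, which encodes TAZ, averaged 27.8 ± 0.435 FPKM in shYap-1 and 27.3 ± 0.459 in shYap-2, against 32.4 ± 0.536 in shCTRL (SD, n = 3 each), and fell by 0.22 and 0.24 (limma, adjusted p = 0.00978 and 0.000342). The call of Wwtr1 with shYap-1 was lost when a trend on GC content was removed.

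Promoter windows show where the letters that TEAD and AP-1 factors recognise lie near the starts of these genes. RefSeq windows on GRCm38.p6 were at hand for 8 of the 10 genes, all but Ccn2 and Asap1, and the 250 bases before each start were searched on both strands. The TEAD core GGAATG was present in 4 of the 8 windows, those of Ccn1, Ankrd1, Axl and Crim1, and in 12.6% of all 32851 windows. The AP-1 letters TGANTCA were present in 1 of 8, that of F3, and in 6.75% of all windows, and the CArG box of SRF in 0 of 8 and in 1.47% of all. The windows with a match are given here, read 5′ to 3′ along the gene, with the matched letters in capitals. Those of Ccn1 (chr3:145649986-145650235, minus strand) and Axl (chr7:25788734-25788983, minus strand) belong to a gene that fell and a gene that rose. That of Crim1 (chr17:78199998-78200247, plus strand) belongs to the gene that changed least, and that of F3 (chr3:121723287-121723536, plus strand) carries both AP-1 matches.
Ccn1: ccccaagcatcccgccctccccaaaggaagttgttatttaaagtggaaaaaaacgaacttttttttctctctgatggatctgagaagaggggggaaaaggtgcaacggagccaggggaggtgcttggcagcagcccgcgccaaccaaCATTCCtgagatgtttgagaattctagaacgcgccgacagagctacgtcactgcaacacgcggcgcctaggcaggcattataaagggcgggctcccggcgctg
Axl: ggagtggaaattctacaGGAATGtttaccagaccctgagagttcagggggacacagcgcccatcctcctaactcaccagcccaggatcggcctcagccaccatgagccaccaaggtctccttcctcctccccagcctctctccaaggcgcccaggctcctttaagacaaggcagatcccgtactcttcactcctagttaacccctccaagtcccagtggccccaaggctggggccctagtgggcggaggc
Crim1: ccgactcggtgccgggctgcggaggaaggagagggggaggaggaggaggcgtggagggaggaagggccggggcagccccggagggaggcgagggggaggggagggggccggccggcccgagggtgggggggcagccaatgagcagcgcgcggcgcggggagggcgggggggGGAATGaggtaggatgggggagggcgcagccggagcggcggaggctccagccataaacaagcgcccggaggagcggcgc
F3: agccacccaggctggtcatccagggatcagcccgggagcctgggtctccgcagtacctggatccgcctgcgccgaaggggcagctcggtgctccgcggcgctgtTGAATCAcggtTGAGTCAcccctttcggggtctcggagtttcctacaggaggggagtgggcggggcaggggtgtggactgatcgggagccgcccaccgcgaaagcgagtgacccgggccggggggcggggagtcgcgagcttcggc
For Ankrd1, whose window lies in an exon of a longer GENCODE transcript, only the matches with 10 bases on each side are shown, chr19:36120039-36120064 and chr19:36119952-36119977 on the minus strand.
Ankrd1 site 1: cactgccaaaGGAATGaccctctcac
Ankrd1 site 2: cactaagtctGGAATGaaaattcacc

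In the Ccn1 window the match ran from 103 to 98 bases before the start, as CATTCC, the same letters on the opposite strand. In that of Axl it ran from 233 to 228 bases before the start, and in that of Crim1 from 79 to 74. In Ankrd1 the matches began 210 and 123 bases before the start. The AP-1 matches of F3, TGAATCA and TGAGTCA, began 146 and 135 bases before the start. A match describes letters only, and the windows do not cover distal enhancers. The window of Nt5e, which had no match, also lies wholly in an annotated exon of its own gene.

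**Figure D1:**
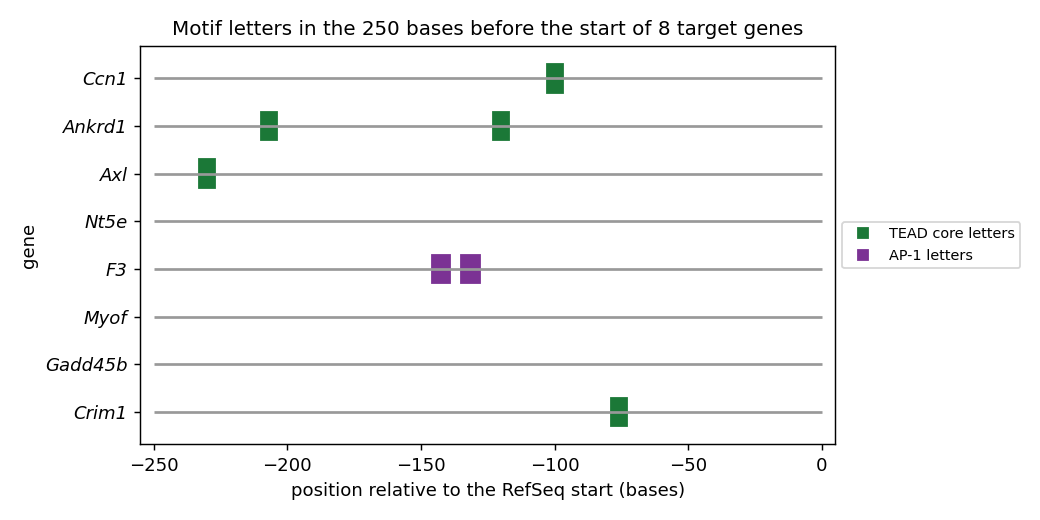
Position of motif letters in the 250 bases before the RefSeq start of 8 target genes, with the distance from the start in bases on the horizontal axis and 1 gene per line. TEAD core letters (green) lie in the windows of Ccn1, Ankrd1, Axl and Crim1 and AP-1 letters (purple) in that of F3, and the lines of Nt5e, Myof and Gadd45b carry no mark. The windows of Ankrd1 and Nt5e lie in annotated exons of these genes.

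Of the 10 target genes, 8 fell with each hairpin: Ccn1, Ccn2, Ankrd1, Nt5e, F3, Myof, Asap1 and Gadd45b. Axl, which encodes a receptor tyrosine kinase, rose with both. Crim1, which encodes a transmembrane regulator of BMP signalling, rose with shYap-1 and did not pass the test with shYap-2. The falls ranged from 0.64 (F3) to 1.90 (Ccn1) on the log2 scale with shYap-1 and from 0.47 (F3) to 2.03 (Ccn1) with shYap-2. These counts stand beside changes in most of the transcriptome. With shYap-1, 27.6% of the 10647 genes tested fell and 37.6% rose, 65.2% in all (limma on log2(FPKM + 1), Benjamini-Hochberg adjusted p under 0.05). With shYap-2, 30.5% of 10615 fell and 43.2% rose, 73.7% in all. The median log2 fold change was -1.09 over the 10 targets against 0.07 over all genes tested with shYap-1, and -0.98 against 0.08 with shYap-2. For the mean of both hairpins, 8 targets fell and 1 rose, where 29.9% of all genes fell and 41.5% rose (71.4% in all), and the target median was -1.03. Since the targets were chosen with earlier results of these data known, these counts and medians are not an independent test. Bulk RNA cannot tell less RNA per cell from fewer cells that express a gene.

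The replicates of the groups were well apart. With shYap-1, 8 targets had all 3 libraries below shCTRL and 2 had all 3 above, where 30.6% and 40.5% of all genes did so. With shYap-2 these counts were 8 and 1, where 31.8% and 44.7% of all genes did so, and only Crim1 overlapped. Taking the 6 knockdown libraries together, 8 targets lay wholly below the 3 shCTRL libraries and Axl wholly above (27.5% and 38.5% of all genes). Each of these 9 reached the smallest p that an exact two-sided permutation test of 6 against 3 libraries allows, 0.0238, and Crim1 had an exact p of 0.143. Groups that do not overlap reach this smallest p by construction, so it repeats the counts above and adds no support. For 3 libraries against 3 the smallest p is 0.1, so smaller p-values rest on the limma model.

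**Figure D2:**
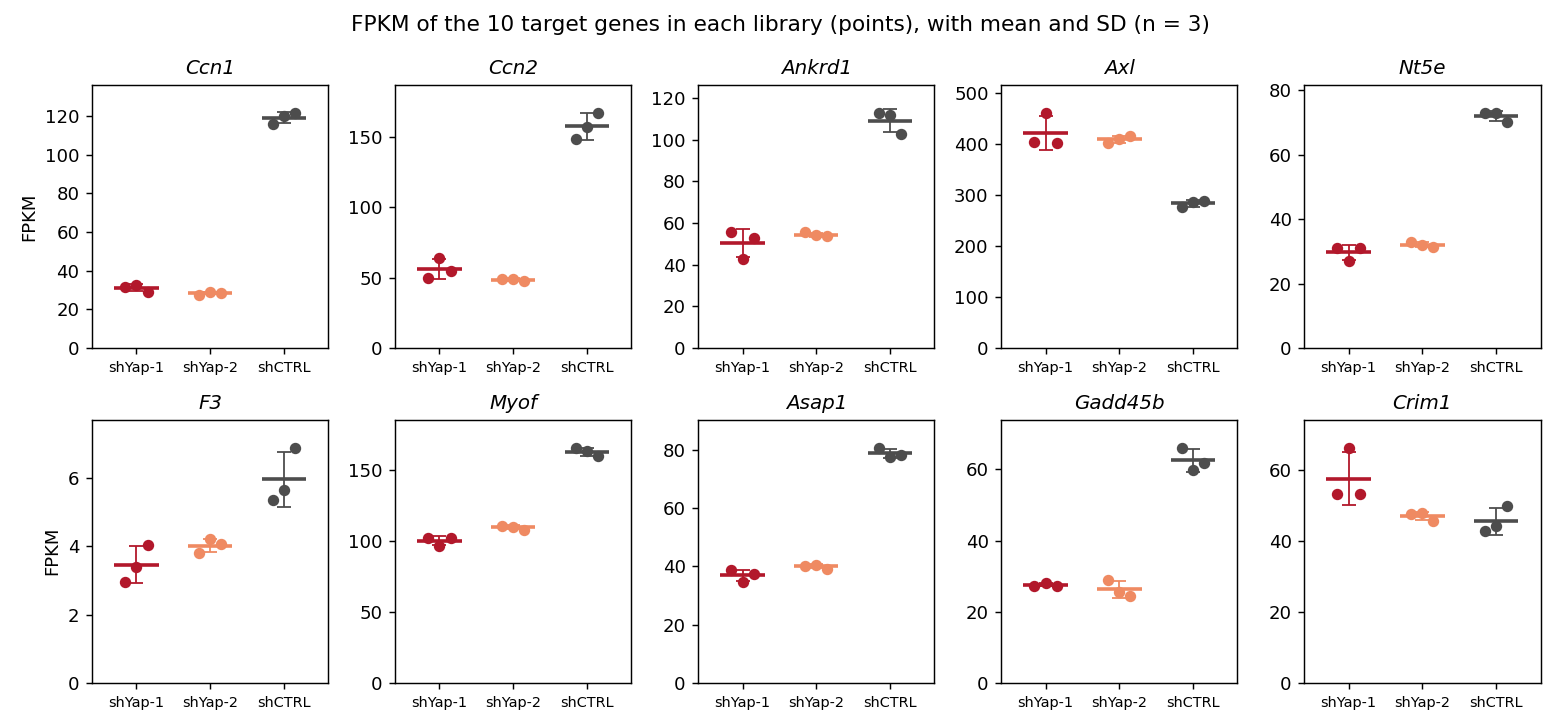
FPKM of the 10 target genes in each library (points) with the mean and SD of 3 libraries, for shYap-1, shYap-2 and shCTRL cells, on axes that start at 0. The knockdown libraries lie below the shCTRL libraries for 8 genes and above them for Axl, and those of Crim1 overlap with shCTRL for shYap-2.

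**Figure D3:**
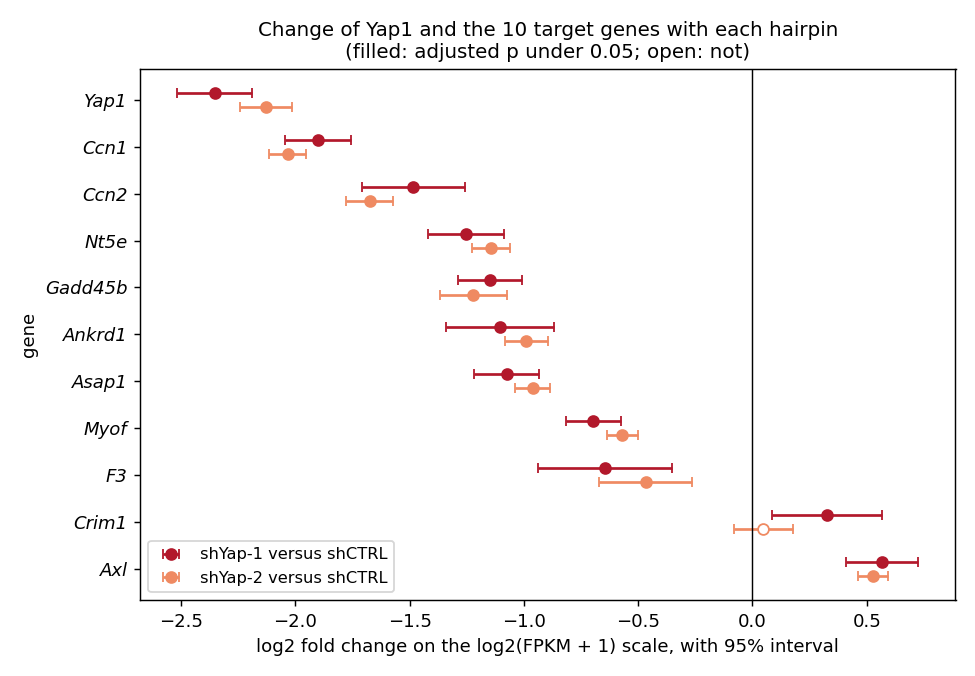
Log2 fold change of Yap1 and the 10 target genes with shYap-1 and shYap-2 against shCTRL on the log2(FPKM + 1) scale, with 95% intervals of the limma fit, ordered by the mean of both hairpins. Ccn1 has the lowest values among the targets (-1.90 and -2.03), and Axl lies above 0 with both hairpins (0.57 and 0.53).

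Ccn1 and Ccn2, older names Cyr61 and Ctgf, encode secreted matricellular proteins that bind integrins and are the most used readouts of YAP. Ccn1 (chr3:145646976-145649981, minus strand, 1 annotated transcript) had 31.6, 32.7 and 29.2 FPKM in shYap-1 cells and 27.7, 29.0 and 28.4 FPKM in shYap-2 cells, against 116, 119.8 and 121 FPKM in shCTRL cells. Every knockdown library was far below every shCTRL library, at 26.2% of the shCTRL mean with shYap-1 and 23.8% with shYap-2. Ccn1 fell by 1.90 ± 0.0613 and 2.03 ± 0.0356 (SE; limma, adjusted p = 1.18e-06 and 1.45e-09), which placed it 36th from the lowest of 10647 genes with shYap-1 and 22nd of 10615 with shYap-2. These values rest on about 1250 to 5950 fragments per library, whose counting error is estimated at up to 2.82%.

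Ccn2 (chr10:24595442-24598683, plus strand) had 49.5, 63.6 and 54.5 FPKM in shYap-1 cells and 49.2, 49.0 and 47.4 FPKM in shYap-2 cells, against 148, 157 and 167 FPKM in shCTRL cells. Replicate 2 of shYap-1 was the highest knockdown library, and the groups did not overlap with shCTRL. Ccn2 fell by 1.48 ± 0.0967 with shYap-1 and by 1.68 ± 0.0451 with shYap-2 (limma, adjusted p = 1.35e-05 and 6.79e-09), to 35.5% and 30.8% of the shCTRL mean. It shares 665 bases with the antisense gene Gm15270, and use of strand is not given in the sources used here. The ratio of Ccn1 to Ccn2 was 0.563 ± 0.0667 in shYap-1 and 0.585 ± 0.0192 in shYap-2, against 0.759 ± 0.0275 in shCTRL (SD, n = 3 each), and the groups did not overlap in it.

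The paralogs of Ccn1 and Ccn2 and the receptors they bind moved the other way. Of 10 such genes, 8 passed the filter on low values and all 8 rose with both hairpins, where 37.6% and 43.2% of all genes rose. Their median was 1.13 with shYap-1 and 0.95 with shYap-2, beside 0.07 and 0.08 over all genes. Ccn5 and Itgb3 were below 1 FPKM in shCTRL and passed the filter only through the knockdown libraries. They could enter only as genes higher in the knockdowns, so the count and median are partly set by the filter. Ccn4, a CCN protein described as a Wnt target, had 38.2, 46.6 and 41.0 FPKM in shYap-1 cells and 32.0, 29.7 and 30.1 FPKM in shYap-2 cells, against 12.5, 14.4 and 14.2 FPKM in shCTRL cells. It rose by 1.55 ± 0.0926 and 1.11 ± 0.0598 on the log2 scale (limma, adjusted p = 9.68e-06 and 3.17e-07). Ccn5, a CCN protein without the C-terminal domain of its relatives, averaged 2.72 ± 0.656 FPKM in shYap-1 and 1.99 ± 0.449 in shYap-2, against 0.0733 ± 0.0252 in shCTRL (SD, n = 3 each), and also rose (1.78 and 1.47). At these levels the pseudocount of 1 shrinks the change, and with a pseudocount of 0.1 Ccn5 had log2 fold changes of 4.01 and 3.58. Integrin subunit genes Itgb3 and Itgb5, whose products pair with the product of Itgav, rose by 1.85 and 1.52 and by 1.41 and 1.11 with shYap-1 and shYap-2. Itgb3 averaged 5.28 ± 0.659 FPKM in shYap-1 and 4.00 ± 0.153 in shYap-2, against 0.743 ± 0.0681 in shCTRL (SD, n = 3 each). With a pseudocount of 0.1 it had log2 fold changes of 2.67 and 2.29, and it failed the filter when a knockdown library was left out. Itgav and Itga6, named after their values were seen, rose by 0.25 and 0.32 with shYap-1. Both of these calls were lost when values were rescaled between libraries or when shCTRL replicate 1 or 3 or shYap-1 replicate 1 or 3 was left out. That of Itgav was also lost with a replicate block, which left 7 genes that rose, and that of Itga6 without shCTRL replicate 2. Without shYap-1 replicate 1 or 3, 6 genes passed the filter and 4 rose. Ccn3 stayed at or below 0.62 FPKM in every library and was not tested.

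The CCN genes as a group had another make-up after knockdown. Their summed level was 132 ± 13.1 FPKM in shYap-1 and 109.9 ± 0.946 in shYap-2, against 290.2 ± 12.8 in shCTRL (SD, n = 3 each). Ccn1 was 23.7% of that sum in shYap-1 and 25.8% in shYap-2, against 41.1% in shCTRL on average. Ccn4 made up 31.3 to 32.1% in shYap-1 libraries and 27.0 to 28.9% in shYap-2 libraries, against 4.53 to 4.94% in shCTRL libraries. The ratio of Ccn4 to Ccn1 was 1.35 ± 0.120 in shYap-1 and 1.08 ± 0.0665 in shYap-2, against 0.115 ± 0.00623 in shCTRL.

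**Figure D4:**
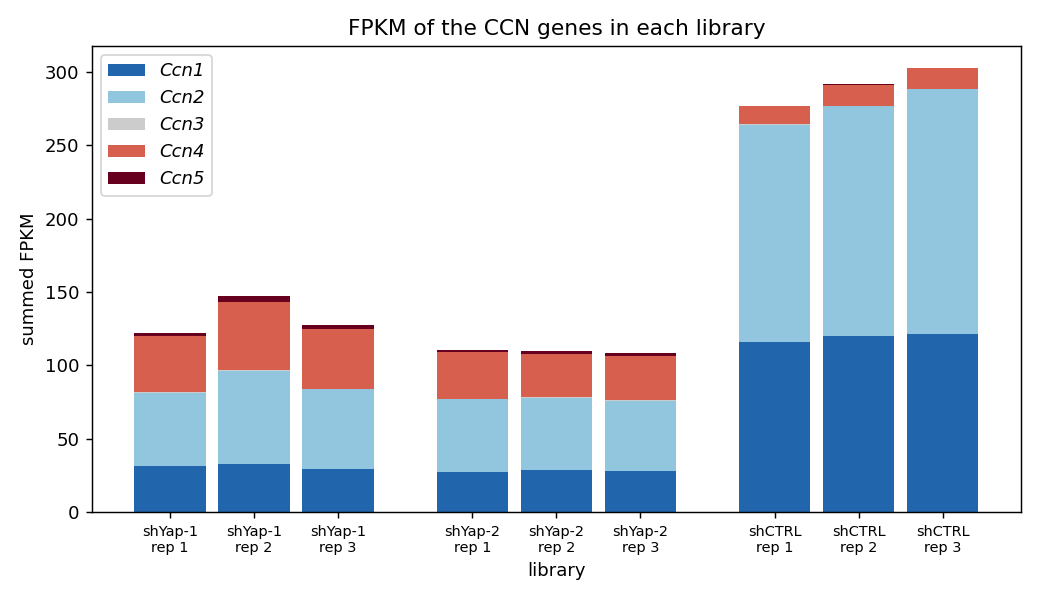
FPKM of 5 CCN genes stacked for each library, with the 3 shYap-1, 3 shYap-2 and 3 shCTRL libraries from left to right. Ccn1 and Ccn2 (blue) make up most of each shCTRL bar, and Ccn4 (red) takes 27.0 to 32.1% of each knockdown bar, against at most 4.94% in shCTRL.

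Ankrd1 encodes an ankyrin repeat protein of muscle sarcomeres and nuclei that is induced by strain. It had 55.9, 43.0 and 52.6 FPKM in shYap-1 cells and 55.6, 54.1 and 53.6 FPKM in shYap-2 cells, against 113, 112 and 103 FPKM in shCTRL cells. Replicate 2 of shYap-1 was the lowest library, and no knockdown library reached the lowest shCTRL value. Ankrd1 fell by 1.10 ± 0.1004 with shYap-1 and by 0.99 ± 0.0417 with shYap-2 (SE; limma, adjusted p = 6.34e-05 and 7.35e-08), to 46.3% and 49.9% of shCTRL. Of its relatives, Ankrd23 averaged 2.47 ± 0.615 and 2.41 ± 0.121 FPKM in shYap-1 and shYap-2, against 1.95 ± 0.231 in shCTRL, with log2 fold changes of 0.22 and 0.21 (limma, adjusted p = 0.204 and 0.0496). The shYap-2 call of Ankrd23 was lost under 12 of 14 alternatives, with adjusted p up to 0.379, among them the replicate block, both rescalings and 5 of the 6 fits that left out a library. With shYap-1 Ankrd23 passed the test without shYap-1 replicate 2 (0.36, adjusted p = 0.0226).

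Axl was the most abundant target in all groups. This receptor tyrosine kinase of the TAM family binds the ligand encoded by Gas6 and is known for roles in invasion and drug tolerance. Axl (chr7:25757273-25788705, minus strand) had 404, 460.3 and 401 FPKM in shYap-1 cells and 403, 409 and 416 FPKM in shYap-2 cells, against 276, 286 and 289 FPKM in shCTRL cells. All 6 knockdown libraries exceeded all 3 shCTRL libraries. Axl rose by 0.57 ± 0.0675 with shYap-1 and by 0.53 ± 0.0297 with shYap-2 (SE; limma, adjusted p = 0.00024 and 4.11e-07), to 149% and 144% of shCTRL. Without replicate 2 of shYap-1, the highest library, the shYap-1 mean was 142% of shCTRL.

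Axl made up nearly all TAM receptor RNA, 98.5% of the sum of Axl, Tyro3 and Mertk in shYap-1 and 98.4% in shYap-2, against 97.4% in shCTRL. Tyro3 averaged 6.21 ± 0.708 FPKM in shYap-1 and 6.65 ± 0.146 in shYap-2, against 7.38 ± 0.445 in shCTRL (SD, n = 3 each). Its log2 fold changes of -0.22 and -0.13 did not pass the test (limma, adjusted p = 0.0784 and 0.0874), while the mean of both hairpins did (-0.18, adjusted p = 0.0491). With trimmed-mean scaling Tyro3 fell with each hairpin (-0.29 and -0.20, adjusted p = 0.0349 and 0.0170), as it did with median-of-ratios scaling and after removal of the GC trend. It also fell with shYap-1 in 1 fit of all libraries and without shYap-1 replicate 2. Mertk stayed at or below 0.16 FPKM, and the ligand genes Gas6 and Pros1 at or below 0.12 and 0.59 FPKM, in every library.

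Nt5e encodes CD73, the surface enzyme that turns extracellular AMP into adenosine. It had 31.0, 27.0 and 31.1 FPKM in shYap-1 cells and 32.8, 32.1 and 31.3 FPKM in shYap-2 cells, against 72.9, 72.9 and 70.3 FPKM in shCTRL cells. The groups were far apart relative to their spread. Nt5e fell by 1.25 ± 0.0708 and 1.14 ± 0.0363 (SE; limma, adjusted p = 7.48e-06 and 1.67e-08), to 41.2% and 44.5% of shCTRL.

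Of 11 other genes of adenosine handling, 5 passed the filter, and 4 fell and 1 rose with each hairpin. Enpp1, among those that fell, had at most 0.87 FPKM in shYap-1 cells and at least 1.53 in shCTRL cells. In the shYap-1 fit it passed the filter only through shCTRL, so it could enter that count only as a gene that fell. The gene that rose was Slc29a1, which encodes the nucleoside transporter ENT1, named after its values were seen. Its shYap-1 call (0.31, limma, adjusted p = 0.0257) was lost with both rescalings and without shCTRL replicate 1, 2 or 3, which left 0 genes that rose with shYap-1. Adk, which encodes the kinase that turns adenosine back into AMP inside the cell, had 6.96, 6.07 and 7.76 FPKM in shYap-1 cells and 8.35, 7.80 and 8.55 FPKM in shYap-2 cells, against 41.0, 38.8 and 40.9 FPKM in shCTRL cells. It fell by 2.38 ± 0.0900 and 2.16 ± 0.0502 (limma, adjusted p = 1.69e-06 and 4.26e-09), more than any of the 10 targets. Ada, the gene of adenosine deaminase, fell by 0.74 and 0.46 (adjusted p = 0.000113 and 0.000144). Entpd1, whose product CD39 makes the AMP that CD73 uses, was at or below 0.1 FPKM in every library. The adenosine receptor genes Adora1, Adora2a and Adora2b were at or below 0.45 FPKM.

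F3 encodes tissue factor, the membrane receptor that starts coagulation with factor VII. It was the least abundant target, with 2.94, 3.40 and 4.03 FPKM in shYap-1 cells and 3.80, 4.20 and 4.06 FPKM in shYap-2 cells, against 5.36, 5.65 and 6.88 FPKM in shCTRL cells. The groups did not overlap, and the values rest on about 170 to 420 fragments per library, with a counting error estimated at up to 7.71%. F3 fell by 0.64 ± 0.124 with shYap-1 and by 0.47 ± 0.0900 with shYap-2 (SE; limma, adjusted p = 0.00272 and 0.00121), to 58.0% and 67.4% of shCTRL.

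Of 8 genes of the tissue factor pathway besides F3, 3 passed the filter and all 3 rose with both hairpins. Of all genes tested, 37.6% rose with shYap-1 and 43.2% with shYap-2. F2r, the gene of the thrombin receptor PAR-1, had 86.5, 83.1 and 82.99 FPKM in shYap-1 cells and 72.9, 70.9 and 72.1 FPKM in shYap-2 cells, against 28.6, 28.4 and 29.2 FPKM in shCTRL cells. It rose by 1.52 ± 0.0522 and 1.295 ± 0.0341 (limma, adjusted p = 1.26e-06 and 6.18e-09). Procr, the gene of the endothelial protein C receptor, rose by 0.66 and 0.60, and F2rl1, the gene of the protease receptor PAR-2, by 0.50 and 0.51. The ratio of F2r to F3 was 24.8 ± 4.42 in shYap-1 and 17.9 ± 1.16 in shYap-2, against 4.87 ± 0.567 in shCTRL (SD, n = 3 each).

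Crim1 encodes a transmembrane protein with cysteine-rich repeats that binds BMPs and tethers growth factors at the cell surface. It had 53.3, 66.3 and 53.3 FPKM in shYap-1 cells and 47.6, 47.9 and 45.8 FPKM in shYap-2 cells, against 42.8, 44.2 and 49.9 FPKM in shCTRL cells. The shYap-1 libraries were above shCTRL, and the shYap-2 libraries lay within its range. Crim1 rose by 0.33 ± 0.103 on the log2 scale with shYap-1 (SE; limma, adjusted p = 0.0253), and the value with shYap-2 was 0.05 ± 0.0569 (adjusted p = 0.471). The shYap-1 mean was 126% of shCTRL, and 117% without replicate 2 of shYap-1. The shYap-1 call was lost when values were rescaled between libraries (adjusted p = 0.0846 with trimmed means) and when shCTRL replicate 1 or 2 was left out (adjusted p = 0.0887 and 0.0828). Crim1 overlaps the antisense gene Fez2 by 123 exonic bases, and Fez2 reached 71.0 FPKM.

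Among 9 genes of BMP and VEGF signalling that act beside CRIM1, 4 passed the filter, and 3 of these fell with each hairpin (limma). Over all genes tested, 27.6% fell with shYap-1 and 30.5% with shYap-2. Vegfa, the gene of the main vascular growth factor, had 1.86, 2.11 and 2.52 FPKM in shYap-1 cells and 2.32, 2.61 and 2.23 FPKM in shYap-2 cells, against 16.3, 17.7 and 15.04 FPKM in shCTRL cells. It fell by 2.46 ± 0.105 and 2.36 ± 0.0773 (adjusted p = 2.45e-06 and 1.93e-08). Bmp7 fell by 0.58 and 0.23 and the receptor gene Bmpr1a by 0.44 and 0.35, and Bmpr2 had log2 fold changes of -0.03 and -0.07 (adjusted p = 0.812 and 0.363). After removal of the GC trend, Bmpr2 passed the test with values of 0.22 and 0.13 (adjusted p = 0.00990 and 0.0383). Bmp7 lost its shYap-2 call without shYap-2 replicate 1 and in 1 fit of all libraries, and the 3 genes other than Vegfa were named after their values were seen.

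Myof encodes myoferlin, a ferlin of the plasma membrane that serves membrane repair and receptor recycling. It had 102, 96.3 and 102 FPKM in shYap-1 cells and 111, 109.9 and 108 FPKM in shYap-2 cells, against 165, 163 and 159.9 FPKM in shCTRL cells. The spread within groups was small beside the gap to shCTRL. Myof fell by 0.70 ± 0.0514 and 0.57 ± 0.0295 (SE; limma, adjusted p = 2.32e-05 and 2.52e-07), to 61.5% and 67.2% of shCTRL. Of 5 other ferlin genes, Fer1l6 alone passed the filter. It passed only through its knockdown libraries, so it could enter only as a gene higher in the knockdowns. It had 2.02, 2.13 and 2.32 FPKM in shYap-1 cells and 2.65, 2.88 and 2.57 FPKM in shYap-2 cells, against 0.44, 0.30 and 0.42 FPKM in shCTRL cells, and rose by 1.19 and 1.42 (limma, adjusted p = 2.41e-05 and 7.41e-07). With a pseudocount of 0.1 in place of 1, Fer1l6 had log2 fold changes of 2.22 and 2.54. It failed the filter when a knockdown library was left out.

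Asap1 encodes a GTPase-activating protein for ARF GTPases that acts at focal adhesions and invadopodia. It lies at chr15:64086857-64382919 on the minus strand, and had 38.6, 34.8 and 37.4 FPKM in shYap-1 cells and 40.3, 40.5 and 39.2 FPKM in shYap-2 cells, against 80.7, 77.7 and 78.1 FPKM in shCTRL cells. No knockdown library came near the shCTRL range. Asap1 fell by 1.08 ± 0.0600 and 0.96 ± 0.0343 (SE; limma, adjusted p = 7.2e-06 and 3.24e-08), to 46.8% and 50.7% of shCTRL. Of its 2 paralogs and 3 ARF genes, all tested, 2 fell and 2 rose with each hairpin. With shYap-1, 27.6% of all genes fell and 37.6% rose, and with shYap-2 30.5% and 43.2%. Asap2 fell by 0.62 and 0.42 and Arf6 by 0.71 and 0.63, whereas Asap3 rose by 1.20 and 1.04. The summed level of the ASAP genes was 60.4 ± 0.533 FPKM in shYap-1 and 65.8 ± 0.114 in shYap-2, against 110.1 ± 1.37 in shCTRL (SD, n = 3 each). Asap1 held 61.1% of it in shYap-1 and 60.7% in shYap-2, against 71.6% in shCTRL.

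Gadd45b encodes a stress-inducible protein that binds and activates the kinase encoded by Map3k4. It had 27.4, 28.2 and 27.3 FPKM in shYap-1 cells and 29.0, 25.6 and 24.4 FPKM in shYap-2 cells, against 66.1, 59.8 and 61.7 FPKM in shCTRL cells. The groups were well separated. Gadd45b fell by 1.15 ± 0.0601 and 1.22 ± 0.0649 (SE; limma, adjusted p = 5.46e-06 and 2.87e-07), to 44.2% and 42.1% of shCTRL. Its paralog Gadd45a, a p53-responsive gene, had 32.7, 41.6 and 32.4 FPKM in shYap-1 cells and 30.0, 28.4 and 29.9 FPKM in shYap-2 cells, against 94.7, 94.0 and 87.3 FPKM in shCTRL cells, and fell by 1.35 and 1.61 (limma, adjusted p = 2.48e-05 and 6.79e-09). Gadd45g averaged 9.25 ± 2.88 FPKM in shYap-1 and 6.09 ± 0.615 in shYap-2, against 6.23 ± 0.276 in shCTRL, and passed the test with neither hairpin (0.47 and -0.03, adjusted p = 0.0517 and 0.726). With shYap-1 Gadd45g passed it with a replicate block (0.47, adjusted p = 0.0276), in 1 fit of all libraries, and without shYap-1 replicate 2 or 3 (0.25 and 0.62). With shYap-2 it passed it when the GC trend was removed (-0.23, adjusted p = 0.0296). The 3 GADD45 genes summed to 72.5 ± 8.58 FPKM in shYap-1 and 61.8 ± 3.11 in shYap-2, against 160.8 ± 5.72 in shCTRL. Map3k4, given after its values were seen, rose by 0.26 with shYap-1 and by 0.23 with shYap-2 (limma, adjusted p = 0.00795 and 0.00138). Its shYap-1 call was lost with median-of-ratios scaling.

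The order of the targets by FPKM differed between the groups. In shYap-1 cells it was Axl (422), Myof (100.1), Crim1 (57.7), Ccn2 (55.8), Ankrd1 (50.5), Asap1 (36.9), Ccn1 (31.2), Nt5e (29.7), Gadd45b (27.6) and F3 (3.46). The ranges of Crim1 and Ccn2, of Ccn2 and Ankrd1, of Ccn1 and Nt5e and of Nt5e and Gadd45b overlapped there. In shYap-2 cells it was Axl (409), Myof (109), Ankrd1 (54.4), Ccn2 (48.5), Crim1 (47.1), Asap1 (39.98), Nt5e (32.1), Ccn1 (28.4), Gadd45b (26.3) and F3 (4.02), with overlaps of Ccn2 with Crim1 and of Ccn1 with Gadd45b. In shCTRL cells it was Axl (284), Myof (163), Ccn2 (157), Ccn1 (119), Ankrd1 (109), Asap1 (78.8), Nt5e (72.0), Gadd45b (62.5), Crim1 (45.6) and F3 (5.96), and the ranges of Myof and Ccn2 alone overlapped. Ccn1 stood at place 7 in shYap-1 and 8 in shYap-2, against 4 in shCTRL, and Crim1 at place 3 and 5, against 9.

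The hairpins were also set against each other, in a model of all 9 libraries. None of the 10 targets passed the test, 0 lower and 0 higher in shYap-2 than in shYap-1 (limma), where 3.29% of the 10733 genes tested did, 1.36% lower and 1.93% higher. At an unadjusted p under 0.05 there were 5 targets, Ccn1, Ccn2, Crim1, Myof and Asap1. The differences of shYap-2 minus shYap-1 ran from -0.28 ± 0.0894 for Crim1 (adjusted p = 0.121) to 0.18 ± 0.110 for F3 (adjusted p = 0.416) on the log2 scale. All 3 shYap-2 libraries lay below all 3 shYap-1 libraries for Ccn1, Ccn2 and Crim1, and above them for Nt5e, Myof and Asap1, where 13.6% and 12.3% of all genes did so. Yap1 itself was 0.22 higher in shYap-2 (adjusted p = 0.0992). Among related genes Ccn4 was lower in shYap-2 (-0.44, adjusted p = 0.0241), as was F2r (-0.22, adjusted p = 0.0259). Of 18 other genes described as YAP targets, counted below, 14 were tested here, and 0 were lower and 2 higher in shYap-2. With 1 shYap-2 library left out, whichever it was, this comparison called at most 1 gene lower and 2 higher in all.

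The genes whose pattern over the 9 libraries was most like that of each target were sought among 8685 genes, by the root mean square difference in log2(FPKM + 1) after centring each gene on its shCTRL mean. For Ccn1 these were Asns (0.0872), which encodes asparagine synthetase, Sesn2 (0.0933), which encodes a stress-responsive sestrin, and Atf3 (0.106), which encodes a bZIP transcription factor. For Axl they were Actn1 (0.0209), which encodes an actin-crosslinking actinin, Fem1a (0.0224), which encodes a ubiquitin ligase adaptor, and Uba1 (0.0261), which encodes the main ubiquitin-activating enzyme. The nearest gene to Ccn2 was Gadd45a (0.117), and to Gadd45b it was Slc3a2 (0.0897), which encodes the heavy chain of amino acid transporters. Ankrd1 was nearest to Qser1 (0.0326), Nt5e to Irs2 (0.05005), F3 to Anapc15 (0.0862), Myof to Rpl14 (0.0214), Asap1 to Siah1b (0.0476) and Crim1 to Pxdc1 (0.0536). Among the targets themselves, Asap1 and Ankrd1 were closest (0.0687) and Ccn1 and Axl farthest apart (2.05).

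Further genes described as YAP targets were counted in the same fits. A published signature of YAP and TAZ activity holds 22 genes, and 12 of them are not among the 10 targets. Of these 12, 6 passed the filter, of which 3 fell with shYap-1 and 4 with shYap-2 (medians -0.15 and -0.18). Over all genes tested, 27.6% and 30.5% fell (medians 0.07 and 0.08). Leaving out shCTRL replicate 1, 2 or 3 or shYap-1 replicate 1 or 3 left 2 that fell with shYap-1. Amotl2, which encodes an angiomotin that restrains YAP, averaged 30.8 ± 2.84 FPKM in shYap-1 and 31.4 ± 1.35 in shYap-2, against 73.4 ± 1.97 in shCTRL (SD, n = 3 each), and fell by 1.23 and 1.20 (limma, adjusted p = 1.05e-05 and 3.07e-08). Lats2, the gene of a kinase that phosphorylates YAP, fell by 0.82 and 0.74. Igfbp3, Fjx1, Ccdc80, Tgfb2 and Rbms3 stayed below 1 FPKM in every library.

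Of 18 other genes described as YAP targets, 14 passed the filter, of which 11 fell and 1 rose with shYap-1 and 10 fell and 1 rose with shYap-2 (medians -0.60 and -0.45). Over all genes tested, 27.6% fell and 37.6% rose in the shYap-1 fit (median 0.07). In the shYap-2 fit 30.5% fell and 43.2% rose (median 0.08). The shYap-1 count depended on single libraries. Without shCTRL replicate 2, 13 genes passed the filter and 8 fell, and without shYap-1 replicate 2, 14 passed and 12 fell. Edn1, the gene of the vasoactive peptide endothelin, had 0.36, 0.19 and 0.29 FPKM in shYap-1 cells and 0.24, 0.58 and 0.32 FPKM in shYap-2 cells, against 3.16, 3.18 and 3.05 FPKM in shCTRL cells. It fell by 1.69 and 1.59, a change that the pseudocount of 1 understates at such levels, and by 3.11 and 2.81 with a pseudocount of 0.1. Edn1 passed the filter only through its shCTRL libraries, so it could enter the count only as a gene lower in the knockdowns. Myc, which encodes a growth-promoting transcription factor, averaged 78.0 ± 7.44 FPKM in shYap-1 and 86.1 ± 2.31 in shYap-2, against 199 ± 9.40 in shCTRL, and fell by 1.34 and 1.20. Thbs1, the gene of the matrix protein thrombospondin, fell by 1.17 and 1.29. The gene that rose with shYap-2 was Areg (0.16, limma, adjusted p = 0.012), named after its values were seen. The call of Areg was lost when values were rescaled between libraries or shYap-2 replicate 2 was left out.

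Among the 10 genes of YAP, TAZ, TEAD and VGLL factors, 8 passed the filter, of which 4 fell and 2 rose with shYap-1 and 4 fell and 4 rose with shYap-2. Of all genes, the shYap-1 fit called 27.6% lower and 37.6% higher, and the shYap-2 fit 30.5% lower and 43.2% higher. The medians of the 8 genes were -0.003 and -0.026, beside 0.07 and 0.08 over all genes. With the GC trend removed, Wwtr1, Vgll3 and Tead4 lost their shYap-1 calls, which left 2 that fell and 1 that rose. Vgll3 lost its shYap-1 call under 4 of 14 alternatives and its shYap-2 call under 3 of 14. Tead4 lost its shYap-1 call under 3 of 15, among them the fit without shCTRL replicate 2, and its shYap-2 call under 7 of 15. Vgll3 and Tead4 were named after their values were seen. With a replicate block 3 genes rose with shYap-1, and 3 without shYap-1 replicate 1. Tead1, the gene of a TEAD factor that is itself on the list of targets, averaged 18.8 ± 2.26 FPKM in shYap-1 and 22.3 ± 0.808 in shYap-2, against 42.5 ± 1.05 in shCTRL. It fell by 1.14 and 0.90 (limma, adjusted p = 3.17e-05 and 1.48e-07). Vgll4, whose product competes with YAP for TEAD, averaged 40.9 ± 3.19 FPKM in shYap-1 and 37.5 ± 2.20 in shYap-2, against 21.7 ± 0.718 in shCTRL, and rose by 0.88 and 0.76 (adjusted p = 3.92e-05 and 1.32e-06). The plot of related genes shows the changes of those named by the rule beside each other.

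**Figure D5:**
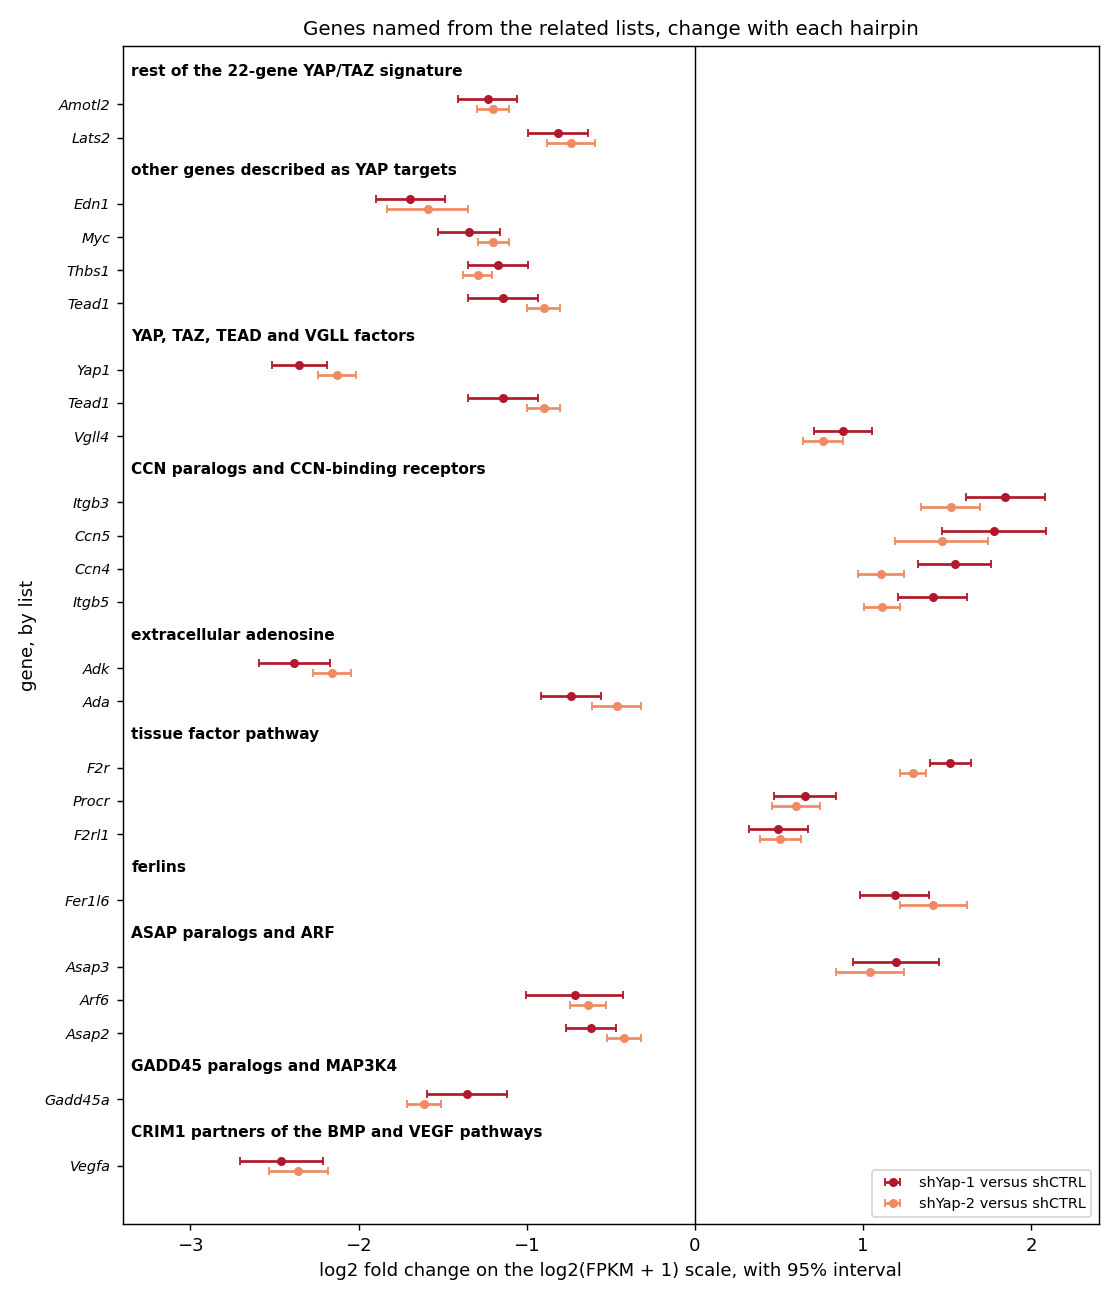
Log2 fold change with shYap-1 and shYap-2 against shCTRL on the log2(FPKM + 1) scale, with 95% intervals of the limma fit, for genes named from lists related to the targets. Genes of the CCN and tissue factor lists lie above 0, up to 1.85 for Itgb3, and Vegfa (-2.46 and -2.36), Adk (-2.38 and -2.16) and Yap1 (-2.35 and -2.13) lie lowest. Itgb3, Ccn5 and Fer1l6 were below 1 FPKM in shCTRL and Edn1 in the knockdowns, and each passed the filter only through the other libraries.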

How the data were processed

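Poly(A) RNA of 9 libraries of 4T1 cells was read on a Novaseq6000 from NEBNext Ultra libraries, per the labels' protocols. The authors deposited gene values as FPKM rounded to 2 decimals, in a table per hairpin with 16530 and 16358 genes, and 0 shCTRL values differed between the tables. Per the submitters' processing notes, the mm10 build was used with HISAT2 2.1.0, fastp 0.18.0, RSEM (no version) and StringTie 1.3.4. Their roles, the gene annotation, any filters and strand use are not given in the sources used here. GENCODE vM21 gave symbols and positions (GRCm38) for 16951 of 16962 identifiers.

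With limma 3.58.1 (R 4.3.3, eBayes with trend) on log2(FPKM + 1), shYap-1 and shYap-2 were each compared with the shCTRL columns of the same table, for genes with FPKM of at least 1 in 3 libraries. This scale understates changes of low genes. P-values were adjusted by Benjamini-Hochberg over all genes tested, and called under 0.05. The mean of both hairpins and shYap-2 minus shYap-1 came from 1 fit of all 9 libraries. The fits were also run on simulated data with independent noise in each library and few changed genes. These data differ, with most genes changed, so that run lends the calls no support. Depth was estimated as the value at which FPKM times length gives whole fragments in low genes, and covers counting error only. Fragments per gene were estimated with the length of all its annotated exons together. Where the transcripts behind the FPKM are shorter, this overstates the fragments and understates the counting error.

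The targets and lists were chosen with earlier results of these data known. Named genes were the targets, Yap1, Wwtr1, their paralogs and, per list, at most 4 genes called the same way with both hairpins and changed by at least 0.5 on the log2 scale in the mean of both, and the nearest genes by pattern (3 for Ccn1 and Axl, 1 otherwise) with a mean of at least 5 FPKM in the higher group. Other list genes, given as low or for a call, were chosen after their values were seen. Alternatives were a pseudocount of 0.1, no filter, at least 5 FPKM, trimmed-mean and median-of-ratios scaling, no trend, 1 fit of all libraries, a replicate block, removal of a GC trend, and each library left out. Python 3.11.15, numpy 2.4.6, pandas 2.3.3, scipy 1.17.1 and matplotlib 3.10.9 were used for the rest. Raw reads were not used here, and 1 gene counted among the other YAP targets is not reported here by itself.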

Additional observations from a re-analysis of the deposited data

How the results depend on the processing

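The number of targets that fell was 8 with shYap-1, with shYap-2 and for the mean of both under every alternative run. The number that rose with shYap-1 was 2, but 1 with trimmed-mean scaling and 1 with median-of-ratios scaling, and 1 to 2 with single libraries left out. With shYap-2 and for the mean of both it was 1, and 1 to 2 with single libraries left out. Crim1 made each of these differences. Its log2 fold change with shYap-1 was 0.25 (limma, adjusted p = 0.0846) with trimmed means and 0.24 (0.0931) with median ratios. With shYap-2 it was -0.032 (adjusted p = 0.641) and -0.038 (0.590) under these scalings, against 0.05 as deposited, and 0.11 (0.0332) without shCTRL replicate 3. These scalings moved the median of all genes by less than 0.1, and the cause was not tested. With a GC trend removed, 1 target was lower in shYap-2 than in shYap-1, Crim1 (-0.27, adjusted p = 0.0360), and 1 was higher, Myof (0.12, adjusted p = 0.0228). The difference of Axl between the hairpins, -0.04, ranged from -0.076 to 0.024 with single libraries left out, the highest value without shYap-1 replicate 2 (adjusted p = 0.635). Over all genes that comparison called 146 lower and 207 higher, but 606 and 697 with the GC trend removed and 760 and 886 without shYap-1 replicate 2.

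The replicate numbers were not shown to pair the libraries. Deviations of same-numbered shYap-1 and shCTRL libraries had correlations of 0.344, 0.0390 and -0.237, and not every library correlated best with its own number. With a replicate block, 8 targets fell with each hairpin, 2 rose with shYap-1 and 1 with shYap-2, and 0 differed between the hairpins (limma). Over all genes the block left 55 lower and 86 higher in shYap-2 than in shYap-1. It changed no call of a target. Depth limits F3 most, whose estimated counting error reached 7.71% in a library.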
